A study of Homo sapiens with 11 samples.

Results

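The genes described here encode the proteins of the cytosolic ribosome. They were taken from the RefSeq annotation of hg38 as protein-coding genes whose symbol is RPL or RPS followed by a digit, together with RPLP0, RPLP1, RPLP2 and RPSA. The kinases of the RPS6K family, the RPS19 binding protein RPS19BP1 and read-through genes were left out. This gave 87 of 20037 protein-coding genes, on 22 chromosomes, with 12 of them on chromosome 19 and 9 on chromosome 3. They comprised 43 genes of the large subunit, 31 of the small subunit, the 3 genes of the ribosomal stalk and 10 paralogs such as RPL26L1 and RPS27L. Every CTCF summit inside one of these genes or within 10 kb of it was assigned to that gene.

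The summits came from CUT&RUN, an assay in which an antibody directs a nuclease to cut out the DNA at its target, here the architectural factor CTCF. The cells were HCT116 p53-/-, a human colorectal cancer line without p53. ORC2 deletion cells were a single clone made with CRISPR/Cas9 from these cells. ORC2 rescue cells carried ORC2 on the plasmid pLHCX and had also passed through clonal selection. WT cells were the unedited HCT116 p53-/- cells, so that p53 was missing in every group, and a difference of clone and one of genotype cannot be told apart. CTCF libraries numbered 2 in ORC2 deletion, 2 in ORC2 rescue and 2 in WT, and IgG libraries, the background without a CTCF antibody, numbered 2, 1 and 2. ORC2 is a subunit of the complex that licenses origins of DNA replication.

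Each genotype has a single deposited list of CTCF summits, with 31112 summits in ORC2 deletion, 20810 in ORC2 rescue and 19044 in WT. The lists name no replicate and were taken as pools of their libraries, so no difference between genotypes has a replicate check and no test between them was made. The depth of the libraries is unknown. A summit carries the authors' −log10 q, which was read only within its own list. The intervals given below are 95% Wilson intervals and cover counting error only. No IgG summit of any genotype lay within 10 kb of a ribosomal protein gene, and the smallest distance from such a gene to an IgG summit was 1834199 bp. The IgG lists are short, with 34 summits in ORC2 deletion, 33 in ORC2 rescue and 17 in WT. Their absence near these genes therefore says little about background.

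Ribosomal protein genes are short, intron-bearing housekeeping genes that are among the most strongly transcribed in dividing cells. Their transcripts begin with a pyrimidine run, the TOP motif, through which growth signals set their translation, and many host small nucleolar RNAs in their introns. Loss of a copy of several of them causes Diamond-Blackfan anaemia, and free RPL5 and RPL11 with 5S rRNA bind MDM2, the inhibitor of p53. CTCF binds a GC-rich motif through its zinc fingers, stops loop-extruding cohesin and is found at many promoters.

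Within 10 kb of the gene, 51 of the 87 ribosomal protein genes had a CTCF summit in ORC2 deletion, 58.6% (48.1 to 68.4). In ORC2 rescue 49 did, 56.3% (45.9 to 66.3), and in WT 44 did, 50.6% (40.3 to 60.8). Over all protein-coding genes the shares were 63.5% in ORC2 deletion, 51.8% in ORC2 rescue and 50.3% in WT. The ribosomal protein genes thus stood close to the background in each list. Their median length was 5057 bp, against 24115 bp over all protein-coding genes, so that their windows were shorter.

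With a window of the same size for every gene, 10 kb either side of the start, 35 of 70 ribosomal protein genes with a known start had a summit in ORC2 deletion, 50.0% (38.6 to 61.4), against 40.1% of 15842 protein-coding genes. In ORC2 rescue 34 of 70 did, 48.6% (37.2 to 60.0), against 28.5%. In WT 34 of 70 did, 48.6% (37.2 to 60.0), against 28.4%. The share of ribosomal protein genes was thus nearly equal in the 3 lists, while that of all genes was highest in the longest list, ORC2 deletion. The start was known for 70 of the 87 genes from the RefSeq promoter table, and for RPL6, RPL26L1, RPL27 and RPL32 it lies inside the outermost annotated gene boundary.

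Within 1 kb of the start, 19 of 70 ribosomal protein genes had a summit in ORC2 deletion, 27.1% (18.1 to 38.5), against 17.2% of all protein-coding genes. In ORC2 rescue 16 did, 22.9% (14.6 to 34.0), against 9.80%, and in WT 17 did, 24.3% (15.8 to 35.5), against 11.1%. The same order between ribosomal protein genes and all genes was seen within 1 kb of either gene end for all 87 genes, with 26.4% against 20.8% in ORC2 deletion, 24.1% against 13.0% in ORC2 rescue and 24.1% against 13.8% in WT. These shares describe the 3 lists, and whether the genes differ from others of like expression was not tested.

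**Figure D1:**
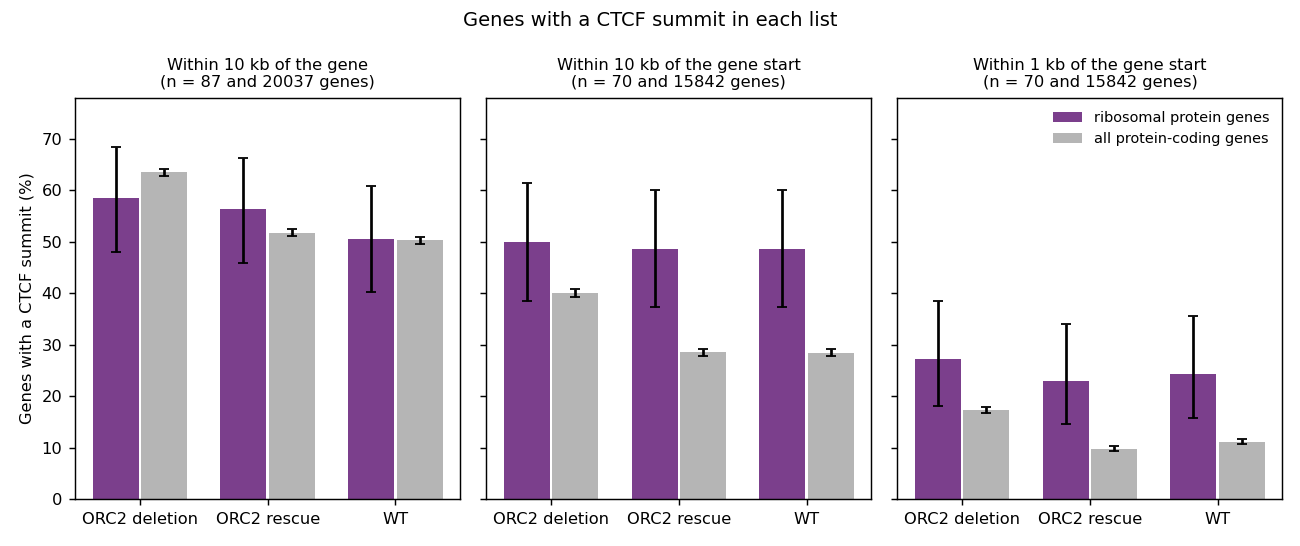
Share of genes with a CTCF summit (vertical axis, %) in ORC2 deletion, ORC2 rescue and WT, for ribosomal protein genes (purple) and all protein-coding genes (grey), in 3 windows; error bars are 95% Wilson intervals. Near the gene start the purple bars lie at 27.1%, 22.9% and 24.3%, above the grey bars at 17.2%, 9.80% and 11.1%.

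Most summits near the start lay upstream of it, as over all protein-coding genes, where 68.0% did in ORC2 deletion, 69.4% in ORC2 rescue and 68.4% in WT. Of 20 such summits in ORC2 deletion near ribosomal protein genes 16 were upstream, 80.0%, with a median position of -256.5 bp. In ORC2 rescue 13 of 16 were upstream, 81.3%, with a median of -305 bp, and in WT 13 of 17, 76.5%, with a median of -218 bp. Between 100 and 500 bp upstream lay 75.0% of the ORC2 deletion, 62.5% of the ORC2 rescue and 64.7% of the WT summits of ribosomal protein genes. Over all protein-coding genes the shares in this band were 47.7% of 2821, 48.8% of 1590 and 47.5% of 1801 start summits.

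**Figure D2:**
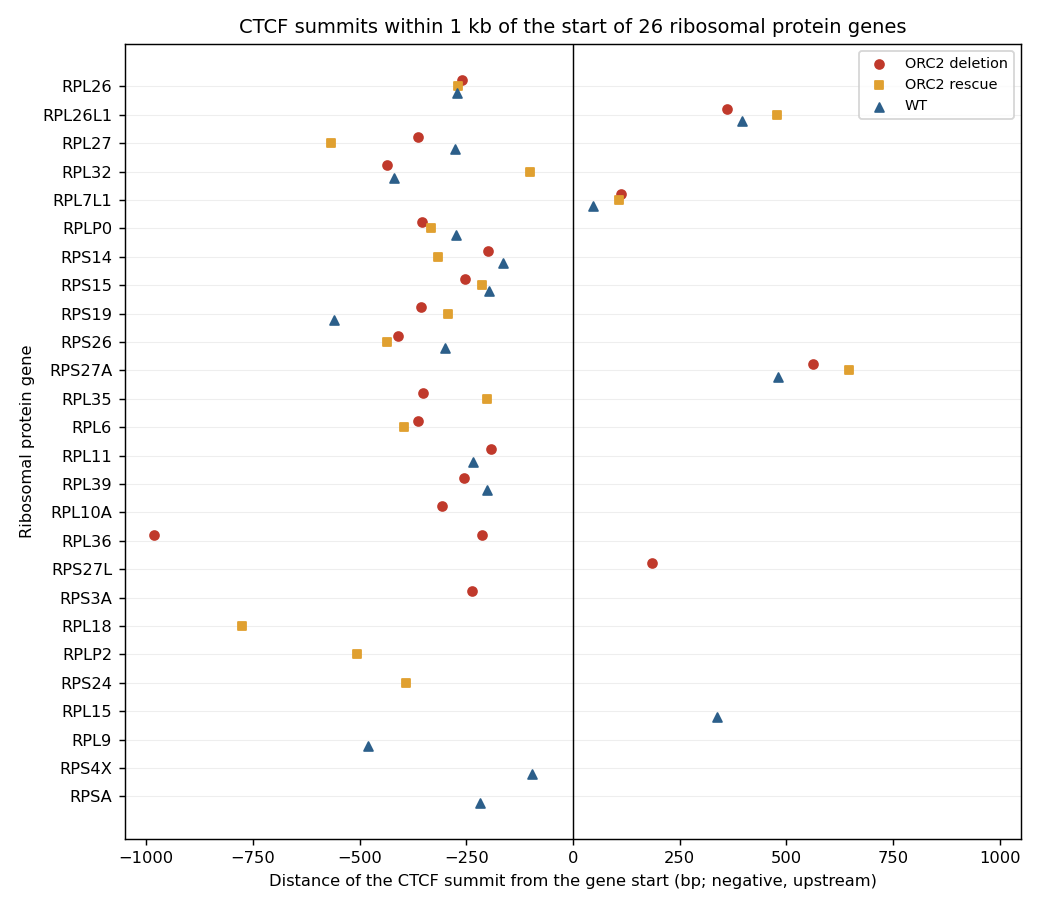
CTCF summits within 1 kb of the start of 26 ribosomal protein genes, by distance from the start (horizontal axis, bp, upstream negative), for ORC2 deletion (circles), ORC2 rescue (squares) and WT (triangles). Genes are ordered by the lists that hold a start summit, with the 11 genes of all 3 lists at the top, and most points lie left of the start.

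A start summit stood in all 3 lists at 11 of 70 genes, 15.7% (9.01 to 26.0), against 6.77% of all protein-coding genes. The highest values belonged to RPL26, a large subunit protein mutated in Diamond-Blackfan anaemia (chromosome 17, 8377516 to 8383193). Its summit lay 259 bp upstream of the start in ORC2 deletion, 269 bp in ORC2 rescue and 271 bp in WT, positions spread over 12 bp. The −log10 q was 64.7 in ORC2 deletion, rank 172 of its list, 47.3 in ORC2 rescue, rank 168, and 64.2 in WT, rank 51. In each of the 3 lists this was the highest summit of any ribosomal protein gene.

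RPL26L1, a paralog of RPL26, held a start summit in all 3 lists too, inside the gene and 361 bp downstream of the start in ORC2 deletion, 479 bp in ORC2 rescue and 397 bp in WT. Its values were 33.3 in ORC2 deletion, 23.5 in ORC2 rescue and 23.3 in WT. Where 100 is the highest value of a list, its percentiles were 97.0 in ORC2 deletion, 95.9 in ORC2 rescue and 96.9 in WT, and those of RPL26 were 99.4, 99.2 and 99.7. Both genes of this pair thus ranked high in each list.

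Among small subunit genes, RPS26 (chromosome 12, 56041918 to 56044697) had start summits 410 bp upstream in ORC2 deletion, 435 bp in ORC2 rescue and 300 bp in WT, with values of 29.1, 17.2 and 8.88. RPS19, the gene most often mutated in Diamond-Blackfan anaemia (chromosome 19, 41860255 to 41872925), had them 357, 293 and 559 bp upstream, with values of 25.2 in ORC2 deletion, 13.9 in ORC2 rescue and 6.18 in WT. RPS14, whose loss underlies the anaemia of the 5q- syndrome, had them 200, 317 and 163 bp upstream, with values of 18.2, 6.76 and 13.1. All 3 genes had a start summit in every list, with positions spread over 135 bp at RPS26, 266 bp at RPS19 and 154 bp at RPS14.

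RPS15, a protein of the small subunit head, had values of 16.0 in ORC2 deletion, 13.6 in ORC2 rescue and 8.40 in WT, 253, 213 and 197 bp upstream. RPL32 had values of 20.5, 14.7 and 6.99, with positions spread over 336 bp. RPL27 had values of 12.9, 4.77 and 4.75. The remaining genes with a start summit in all 3 lists were RPLP0, the stalk base that holds the RPLP1 and RPLP2 dimers, RPS27A, which encodes a fusion of ubiquitin and a ribosomal protein, and RPL7L1. Their values ran from 2.64 to 8.90 in ORC2 deletion, from 2.35 to 5.46 in ORC2 rescue and from 3.67 to 4.81 in WT. All but the RPLP0 summit of ORC2 deletion were below the median of their list, which was 8.06 in ORC2 deletion, 6.58 in ORC2 rescue and 6.18 in WT. The RPS27A summits also lie within 1 kb of the start of CLHC1, at 173, 258 and 92 bp.

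Start summits in ORC2 deletion but in neither other list were found at 4 of 70 genes, 5.71% (2.24 to 13.8), against 6.46% of all protein-coding genes. They were RPS3A (−log10 q 8.42, 237 bp upstream), RPL10A (7.07, 306 bp upstream), RPS27L (3.73, 186 bp downstream) and RPL36. RPL36 belongs here by the 1 kb limit alone for its main summit, which had 24.3 in ORC2 deletion 981 bp upstream. Its counterparts lay 1073 bp upstream in ORC2 rescue (11.1) and 1092 bp upstream in WT (9.36). A second RPL36 summit, 212 bp upstream in ORC2 deletion (3.87), stood in that list alone.

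Start summits of ORC2 deletion and ORC2 rescue without one in WT were found at RPL35 and RPL6, 2.86% of 70 genes against 1.63% of all. The values were 7.13 in ORC2 deletion and 7.96 in ORC2 rescue at RPL35, and 8.26 and 4.23 at RPL6. The RPL35 summits also lie within 1 kb of the start of ARPC5L, an actin-nucleation subunit, 178 bp from it in ORC2 deletion and 28 bp in ORC2 rescue. Start summits of ORC2 deletion and WT without one in ORC2 rescue stood at RPL11 and RPL39, 2.86% against 2.39%. RPL11 had 21.4 in ORC2 deletion, 191 bp upstream, and 10.0 in WT, 235 bp upstream, and its window held no ORC2 rescue summit at all. RPL39 had 4.83 in ORC2 deletion and 2.28 in WT.

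The other start summits stood in 1 list each. In ORC2 rescue they were those of RPL18 (3.65), RPLP2 (4.61) and RPS24 (2.68). In WT they were those of RPL15 (6.76), RPL9 (5.18), RPS4X (4.43), the X-linked copy of a gene with Y-linked partners, and RPSA (2.28), the laminin receptor precursor of the small subunit. None of the 7 was above 6.76. The genes of ORC2 rescue alone were 4.29% of 70, against 1.02% of all protein-coding genes, and those of WT alone 5.71%, against 1.60%, with few genes behind each share. Start summits of ORC2 rescue and WT without ORC2 deletion stood at 0 of 70 genes, where the share of all protein-coding genes was 0.385%, too low for 0 to be read as a difference. The start summits of RPL18, RPL15 and RPL9 also lay within 1 kb of the start of another gene, SPHK2, NKIRAS1 and LIAS in turn.

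RPL5, a partner of RPL11 in the 5S particle, has no start in the promoter table and was read by its gene boundaries (chromosome 1, 92831986 to 92841924). Its summits were 170 bp outside the lower boundary in ORC2 deletion (13.1), just inside that boundary in ORC2 rescue (6.64) and 163 bp outside it in WT (13.7). RPS20 had a summit 228 bp outside its upper boundary in ORC2 deletion (11.7) and 306 bp outside it in ORC2 rescue (8.06), and the WT list had none within 1 kb of that boundary.

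Because promoters carried summits in several of these genes, their letters were compared. RefSeq promoter windows (GRCh38.p14, 250 bases before the start and 50 from it) were matched for 70 of the 87 genes and for 15842 protein-coding genes. The pyrimidine letters CTTTTC or CTTTCC, read on the gene's strand within 20 bases of the start, were found in 27 of 70 ribosomal protein promoters, 38.6%, against 3.43% of all. CCGGAAG, the letters of ETS factors, were in 32.9% against 14.2%, and AAGATGG, of YY1, in 12.9% against 6.40%. GGGCGG, of SP1, were in 52.9% against 58.5%. The CTCF core letters CAGGNGGC or TAGGNGGC were in 13 of 70, 18.6%, against 18.8% of all. All but the pyrimidine letters were searched on both strands. The motifs do not contain each other, but matches on opposite strands can overlap.

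The CTCF core letters stood in 7 of the 26 promoters with a start summit and in 6 of the 44 without one. Those of RPLP0, RPS15 and RPS14, which had a start summit in all 3 lists, and of RPL11, which had none in ORC2 rescue, are shown as 30 bases from RefSeq with the core in capitals, so that letters and summits can be set side by side. In RPLP0 the middle of the core lies 232 bp upstream of the start, with summits 353 bp (ORC2 deletion), 332 bp (ORC2 rescue) and 274 bp (WT) upstream. In RPS15 it lies 152 bp upstream, with summits at 253, 213 and 197 bp. In RPS14 it lies 41 bp downstream and in RPL11 it lies 11 bp upstream, while their summits were all over 150 bp upstream. None of these summits fell on the letters shown.
RPLP0, chr12:120201328-120201357, minus strand: ctccagcccagCAGGTGGCagcagctcaga
RPS15, chr19:1438230-1438259, plus strand: tctgcagacctCAGGCGGCggctgctctaa
RPL11, chr1:23691754-23691783, minus strand: gccttatgggcCAGGAGGCgggctcttttc
RPS14, chr5:150449690-150449719, minus strand: ctggagacgacgtgcaggTAGGAGGCccgg
The summits of RPL26 lie just outside its promoter window, and no letters around them were read. The start summits of RPS26, RPS19, RPL27 and RPLP0 also lie outside their windows in every list. The median position of start summits was beyond the upstream end of the window in ORC2 deletion (-256.5 bp) and ORC2 rescue (-305 bp). In WT it was within the window (-218 bp). The counts of core letters therefore cannot say whether such letters lie under the summits, since many summits fell outside the bases searched.

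The pyrimidine letters searched, which are not the TOP motif as a whole and miss other pyrimidine runs, stood in 9 of the 26 promoters with a start summit and in 18 of the 44 without one. Start windows are shown with 15 bases before the start and 15 from it. RPS19 and RPS14 had a start summit in all 3 lists. RPS6, the target of S6 kinases, and RPL13A had no summit within 10 kb in any list. Capitals mark the pyrimidine letters searched.
RPS19, chr19:41860240-41860269, plus strand: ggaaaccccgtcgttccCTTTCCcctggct
RPS14, chr5:150449725-150449754, minus strand: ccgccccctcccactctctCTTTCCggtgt
RPS6, chr9:19380222-19380251, minus strand: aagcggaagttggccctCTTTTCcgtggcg
RPL13A, chr19:49487593-49487622, plus strand: cgacaaaacctcctcCTTTTCcaagcggct
The letters were thus present at starts with and without a CTCF summit.

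**Figure D3:**
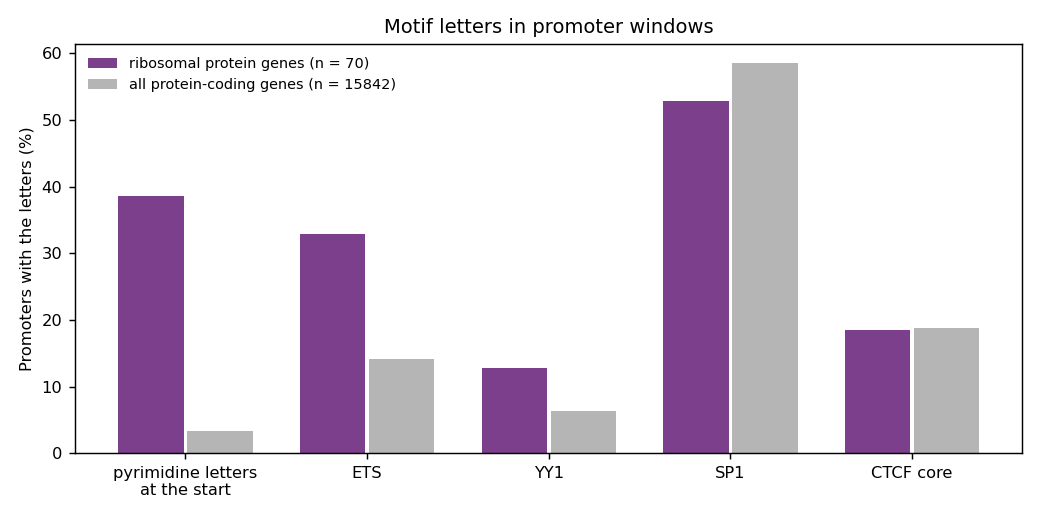
Share of promoter windows (vertical axis, %) that hold the letters of each motif (horizontal axis), for 70 ribosomal protein genes (purple) and 15842 protein-coding genes (grey). The pyrimidine letters CTTTTC or CTTTCC at the start are in 38.6% against 3.43%, whereas the CTCF core letters are in 18.6% against 18.8%.

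Several of the highest summits of ribosomal protein genes lay away from the start and at neighbouring genes. RPL35 had a summit 4780 bp outside the gene in ORC2 deletion (60.9), 4826 bp in ORC2 rescue (45.8) and 4790 bp in WT (41.8), within 1 kb of the start of WDR38. RPS24, an 18S rRNA maturation protein of the small subunit, had one 4092 bp upstream in ORC2 deletion (57.6), 4078 bp in ORC2 rescue (24.1) and 4109 bp in WT (22.9), within 270 bp of the start of POLR3A, the largest subunit of RNA polymerase III. RPS27 had one inside RAB13, a small GTPase, 3749 bp upstream in ORC2 deletion (48.3), 3711 bp in ORC2 rescue (30.6) and 3705 bp in WT (28.3). RPL29 and RPL39L also stood in all 3 lists, with 35.9, 30.6 and 28.5 at RPL29 and 39.8, 17.1 and 22.1 at RPL39L. The summits of these 2 genes lay neither inside another protein-coding gene nor within 1 kb of a known start of one. Of all summits of ribosomal protein genes, 12 of 79 in ORC2 deletion, 10 of 73 in ORC2 rescue and 8 of 58 in WT were within 1 kb of another protein-coding gene's start. These are 15.2%, 13.7% and 13.8%. The share over all summits was not counted, so they are not read as a trait of these genes.

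**Figure D4:**
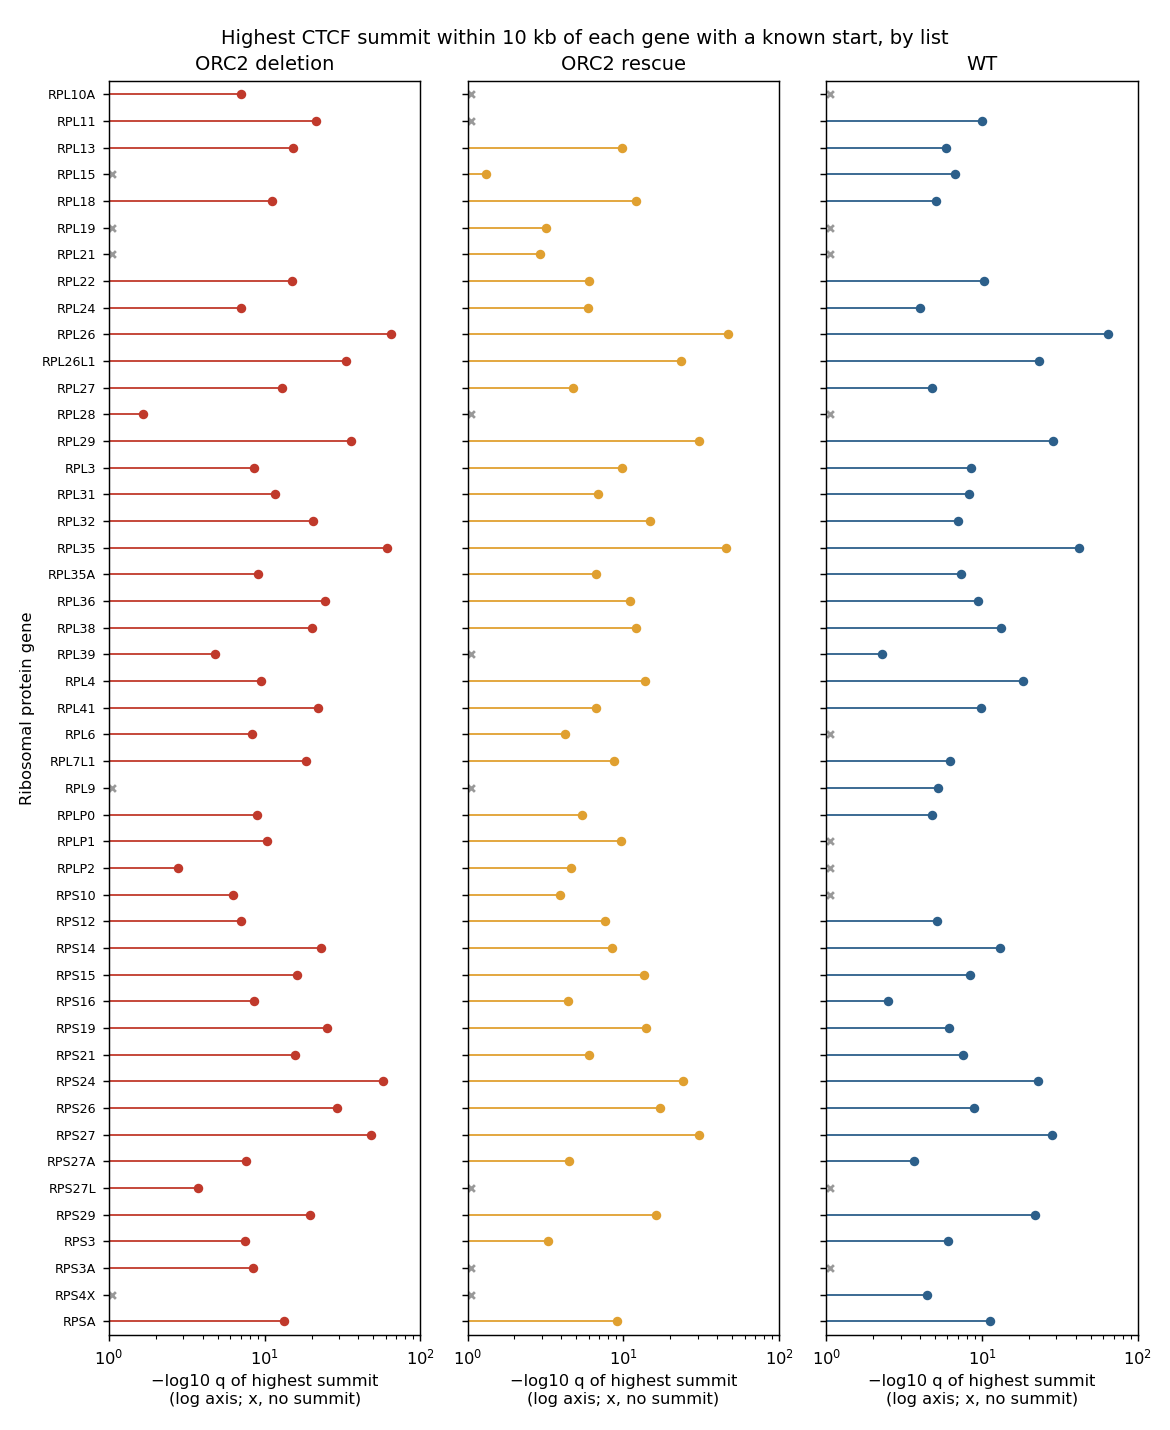
The −log10 q of the highest CTCF summit within 10 kb of each of 47 ribosomal protein genes with a known start (rows), in ORC2 deletion, ORC2 rescue and WT (panels; log axis); crosses mark genes with no summit in that list. RPL26, RPL35, RPS24 and RPS27 have high values in every panel, and values are to be read within a panel, since the lists were not scaled to each other.

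By gene, 39 of the 87 had a summit within 10 kb in all 3 lists, 44.8% against 43.4% of all protein-coding genes, and 30 had none in any, 34.5% against 33.1%. These shares were close to the background. RPS27L, RPL28, RPS3A and RPL10A had summits in ORC2 deletion only, 4.60% against 8.72%. Those with summits in ORC2 rescue only included RPL21 and RPL19 among 3 genes, 3.45% against 1.41%, and RPL9 and RPS4X had them in WT only, 2.30% against 1.45%. Those of ORC2 deletion and ORC2 rescue without WT were RPLP1, RPLP2, RPL6, RPL23A, RPS10 and RPL8, 6.90% against 6.47%. RPL11 and RPL39 had summits in ORC2 deletion and WT without ORC2 rescue, 2.30% against 4.90%, and RPL15 in ORC2 rescue and WT without ORC2 deletion, 1.15% against 0.524%.

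Some of these assignments turn on the 10 kb limit. Just inside it lay the RPLP1 summits, 9887 bp from the gene in ORC2 deletion (10.3) and 9982 bp in ORC2 rescue (9.61), and just outside it the RPLP1 summit of WT, at 10085 bp (8.27). RPL9 had summits just outside it in all 3 lists, at 10572 bp in ORC2 deletion (22.3), 10576 bp in ORC2 rescue (9.21) and 10601 bp in WT (13.3). The absence of RPLP1 from WT is thus set by the window. A wider window would also count RPL9 in all 3 lists. Its WT summit 479 bp upstream of the start (5.18) would still have no ORC2 deletion or ORC2 rescue summit beside it. RPLP2 had a WT summit at 11544 bp (13.0), beside those of ORC2 deletion at 11446 bp (21.0) and ORC2 rescue at 11544 bp (11.9). It is thus not the counterpart of the RPLP2 summits inside the window. RPL7, among the genes below without a summit, had them at 11091 bp in ORC2 deletion (22.7), 11341 bp in ORC2 rescue (10.6) and 11152 bp in WT (13.0). So did RPL13A, RPS13 and RPS15A, in WT at 10956, 10817 and 11398 bp.

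The 30 genes without a summit within 10 kb in any list included RPL27A, RPS13, RPS25, RPL10L, RPL36AL, RPL3L, RPS2, RPS15A, RPL23, RPL17, RPS28, RPL13A, RPS9, RPS7, RPL37A, RPL14, RPL22L1, RPL34, RPL37, RPS23, RPS18, RPL7, RPS6, RPL12, RPL7A, RPL36A, RPL10, RPS4Y1 and RPS4Y2. RPS4Y1 and RPS4Y2 are on the Y chromosome, on which no list has a summit. A neighbour within reach gave no shared summit, since windows such as those of RPS29 and RPL36AL and of RPL3L and RPS2 overlap but 0 sites were shared by 2 of the genes.

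By subunit, 26 of 43 large subunit genes had a summit within 10 kb in ORC2 deletion, 25 in ORC2 rescue and 23 in WT. Of 31 small subunit genes 18 did in ORC2 deletion, 18 in ORC2 rescue and 17 in WT. All 3 stalk genes did in ORC2 deletion and in ORC2 rescue and RPLP0 alone in WT. For RPLP1 this is a matter of the window, as its WT summit lay just outside it. The RPLP2 summits in the window had no WT summit beside them. They lay 1576 bp upstream of the start in ORC2 deletion (2.80) and 505 bp upstream in ORC2 rescue (4.61). Of the 10 paralogs 4 did in ORC2 deletion, 3 in ORC2 rescue and 3 in WT, with RPL26L1, RPL39L and RPL7L1 in every list. The 19 genes of Diamond-Blackfan anaemia had 14 with a summit in each list, 12 of them in all 3. The 14 are 73.7% (51.2 to 88.2), with few genes behind the share. Over all protein-coding genes it was 63.5% in ORC2 deletion, 51.8% in ORC2 rescue and 50.3% in WT. RPL11, RPL15 and RPS10 lacked it in 1 list each, and RPS15A, RPS28 and RPS7 were among the 4 that had none.

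Small nucleolar RNA genes lay inside 29 of the 87 ribosomal protein genes, 33.3%, against 2.63% of all protein-coding genes, 60 such genes in all. Of these 29 hosts 18 had a summit within 10 kb in ORC2 deletion, 16 in ORC2 rescue and 14 in WT. Of the other 58 genes 33 did in ORC2 deletion, 33 in ORC2 rescue and 30 in WT. In each list summits thus stood near hosts and near other genes alike, and the difference between their shares was not tested.

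Joined within 100 bp, the summits of ribosomal protein genes formed 122 of the 43812 sites of the series. RPS14 had the most, 7, followed by RPL7L1 with 5. RPL41, RPL36, RPL13, RPS20 and RPS16 were among those with 4. RPL13 had 3 summits in every list, upstream, inside the gene and beyond its end, with values of 6.97, 15.1 and 10.5 in ORC2 deletion, 6.97, 9.80 and 6.45 in ORC2 rescue and 5.80, 2.63 and 5.87 in WT. At RPS14 the summit 9151 bp upstream had 22.9 in ORC2 deletion, 7.82 in ORC2 rescue and 3.63 in WT.

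Some of these counts came from summits of different lists that lay near each other without being joined. At RPS16 the upstream summits lay 4319 bp from the start in ORC2 deletion (8.59), 4501 bp in ORC2 rescue (4.39) and 4634 bp in WT (2.48), and they count as 3 sites. At RPL41, which encodes one of the smallest human proteins, the far summit had 22.0 in ORC2 deletion, 6.67 in ORC2 rescue and 9.78 in WT, inside ZC3H10, and counts as 2 sites. RPL7L1 had its highest summit 9077 bp outside the gene in ORC2 deletion (18.4), 9042 bp in ORC2 rescue (8.68) and 9097 bp in WT (6.24). All 3 genes thus had a summit from every list within these stretches.

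Inside the gene a summit stood at 13 ribosomal protein genes in ORC2 deletion, 13 in ORC2 rescue and 12 in WT. These are 14.9%, 14.9% and 13.8% of the 87, against 40.1%, 31.1% and 29.4% of all protein-coding genes, whose median length was the larger, as given above. Whether the shares differ among genes of like length was not tested. Besides RPL26L1 and RPL13, whose values stand above, RPS29 had 19.6 in ORC2 deletion, 16.3 in ORC2 rescue and 22.0 in WT, and RPS24 had 17.0, 11.7 and 7.57. At RPL4 the summit lay 13 bp outside the gene in ORC2 deletion (9.41) and just inside its end in ORC2 rescue (13.9) and in WT (18.3). RPL38 had 12.5 in ORC2 deletion, 4.35 in ORC2 rescue and 13.3 in WT, and RPL31 had 11.7, 6.92 and 8.24. The genes of RPS29, RPS24 and RPL31 are mutated in Diamond-Blackfan anaemia. The summits of RPS29, RPS24, RPL38 and RPL31 lay far from the start, 11830 bp downstream of it at RPS29, 13644 bp at RPS24, 6774 bp at RPL38 and 10371 bp at RPL31 in the ORC2 deletion list.

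Of the 122 sites, 30 had a summit in all 3 lists, 24.6%, against 20.0% of all sites, and 23 had one in ORC2 deletion alone, 18.9%, against 32.8%. In ORC2 rescue alone 26 did, 21.3%, and in WT alone 15 did, 12.3%, against 13.2% and 12.0% of all sites. Joined within 500 bp, 46 of 97 sites were in all 3 lists, 47.4%, against 40.6% of 34769, and 12 were in ORC2 deletion alone, 12.4%, against 27.3%. The share of sites of the ORC2 deletion list alone was thus lower than over all sites under both ways of joining, and this difference was not tested. With the lists cut to the length of the WT list by value, 8 of 101 sites were in ORC2 deletion alone, 7.92%, against 16.0% of 33352 sites.

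**Figure D5:**
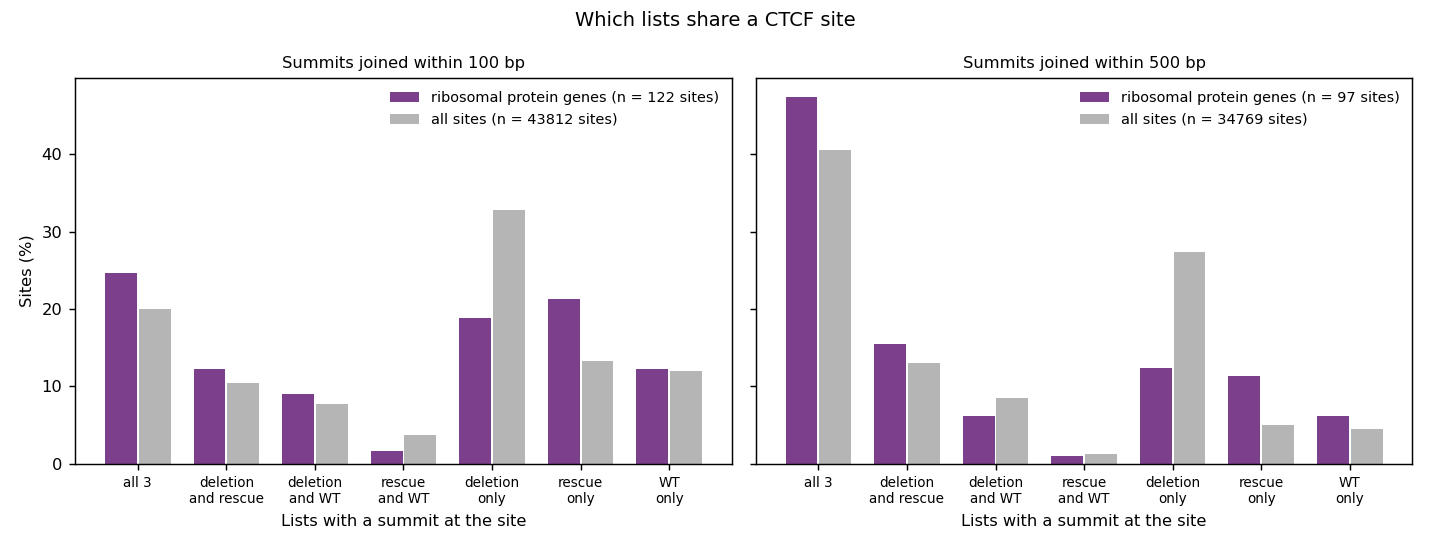
Share of CTCF sites (vertical axis, %) by the lists that hold a summit there (horizontal axis), at ribosomal protein genes (purple) and over all sites (grey), with summits joined within 100 bp (left) and 500 bp (right). Sites of ORC2 deletion alone make up 18.9% and 12.4% of the ribosomal protein sites, against 32.8% and 27.3% of all.

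In number, the ribosomal protein genes had 79 summits in ORC2 deletion, 73 in ORC2 rescue and 58 in WT, which is 0.254%, 0.351% and 0.305% of each list. The ORC2 deletion number was 1.36 times and the ORC2 rescue number 1.26 times that of WT, where the whole lists were 1.63 and 1.09 times as long as the WT list. By value the summits were ordinary for their lists, with a median percentile of 56.1 in ORC2 deletion, 50.7 in ORC2 rescue and 50.4 in WT, on the scale used above.

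The authors deposited lists of regions named up and down, without values. The up list held 13 regions within 10 kb of 12 ribosomal protein genes, 13.8% of the 87 (8.07 to 22.6), against 30.6% of all protein-coding genes. The windows of ribosomal protein genes were shorter, given the lengths above, and genes of like length were not compared. As sites, 13 of 122 were in up regions, 10.7%, against 21.9% of all sites. Each of the 13 holds an ORC2 deletion summit and neither an ORC2 rescue nor a WT summit. An ORC2 deletion summit stood at all 9603 sites of the series in up regions, so it is not particular to these genes. How many of the 9603 lack an ORC2 rescue and a WT summit was not counted. The lack of both at the 13 is therefore not read as a trait of these genes. The genes included RPLP2, RPS26, RPLP0, RPS27L, RPL4, RPL38, RPL36 with 2 regions, RPL28, RPS3A, RPL10A and RPL7L1.

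The values of these 13 summits ran from 1.65 at RPL28 to 8.42 at RPS3A, with a median of 3.87, against 4.34 over all up summits. None was above percentile 52.2 of the ORC2 deletion list. Those at RPS3A, RPL10A, RPL36 and RPS27L were start summits, described above with their values, with the RPL36 summit being that at 212 bp. The other 9 lay elsewhere in the window, such as 775 bp outside RPLP0 (3.94), 2423 bp outside RPS26 (4.68) and inside RPL4 (2.88). RPS26, RPLP0 and RPL38 also had summits from each of the 3 lists elsewhere in their windows.

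The authors' deposited list of down regions held 1 region at these genes, at RPL30 on chromosome 8, from 98045637 to 98045885, 1.15% of genes (0.203 to 6.23) against 1.72% of all protein-coding genes. It holds an ORC2 rescue summit 322 bp outside the gene's upper boundary (3.08) and a WT summit 171 bp outside it (3.98), and no ORC2 deletion summit. As these summits lie over 100 bp apart they count as 2 sites, 1.64% of 122 against 1.15% of all. RPL30 also had a summit 4451 bp outside the gene in ORC2 deletion (11.9) and 4423 bp outside it in ORC2 rescue (5.13), without one of WT at that site.

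Other genes of the translation machinery were read the same way. Over all protein-coding genes, 63.5% had a summit within 10 kb in ORC2 deletion, 51.8% in ORC2 rescue and 50.3% in WT. Within 1 kb of the start the shares were 17.2%, 9.80% and 11.1%. Of 77 genes of the mitochondrial ribosome 54 had a summit within 10 kb in ORC2 deletion, 70.1%, 42 in ORC2 rescue, 54.5%, and 49 in WT, 63.6%. Within 1 kb of the start, 26 of 69 did in ORC2 deletion, 37.7%, 13 in ORC2 rescue, 18.8%, and 20 in WT, 29.0%. Of 30 factors of ribosome biogenesis 23 had a summit within 10 kb in ORC2 deletion, 21 in ORC2 rescue and 21 in WT. Start summits stood at 7 of 26 in ORC2 deletion, 26.9%, 5 in ORC2 rescue, 19.2%, and 6 in WT, 23.1%. Initiation factor genes were taken as the 56 with a symbol of EIF and a digit. That rule also takes in genes that are not initiation factors, and EIF6, counted above among biogenesis factors. Within 10 kb, 39 of them had a summit in ORC2 deletion, 69.6%, 30 in ORC2 rescue, 53.6%, and 25 in WT, 44.6%. Start summits stood at 11 of 47 in ORC2 deletion, 23.4%, 6 in ORC2 rescue, 12.8%, and 8 in WT, 17.0%. A start summit in all 3 lists was found at 15.9% of mitochondrial ribosomal protein genes, 19.2% of biogenesis factors and 8.51% of EIF genes. It was 15.7% of the cytosolic ribosomal protein genes and 6.77% of all protein-coding genes. Start shares above those of all genes were thus not particular to the cytosolic ribosomal protein genes. Of 6 elongation factor genes 5, 4 and 3 had a summit within 10 kb, too few for a share. Up regions stood within 10 kb of 25 of 77 mitochondrial ribosomal protein genes, 32.5%, 6 of 30 biogenesis factors, 20.0%, and 19 of the 56 EIF genes, 33.9%. The share was 13.8% of the cytosolic ribosomal protein genes and 30.6% of all protein-coding genes. The gene lengths of these groups, which set the windows, were not compared.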

How the data were processed

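CTCF and IgG CUT&RUN libraries of ORC2 deletion, ORC2 rescue and WT cells were analysed through the authors' processed files. Build hg38 and the tools MACS2, Bowtie2 2.2.9, SAMtools 1.12 and FastQC 0.11.5 are listed in the submitters' processing notes. How peaks were called, how duplicates were handled and whether IgG served as control is not stated there. Each peak is a single base in the authors' lists, with a −log10 q that was not scaled between lists. The deposited up and down regions hold no value, and their making is not given in the sources used here.

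On coordinates counted from 1, summits were assigned to RefSeq genes (GRCh38.p14) with Python 3.11.15, NumPy 2.4.6, pandas 2.3.3 and matplotlib 3.10.9. Summits of the 3 lists within 100 bp of their neighbour were joined into sites. Percentiles are within a list. Matching was tested on simulated data.

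The genes, gene lists and rule for named genes were chosen with earlier results of these data known. The rule named genes with an up or down region, the 6 highest per list, the 5 with most sites, those with a start summit in 1 or 2 lists, pairs of genes with shared windows, and those without a summit. RPS15, RPS19, RPL27, RPL32, RPS27A, RPS29, RPL31, RPL5 and genes at the window's edge were added after their values were seen. Some genes are counted but not reported here by name. No test was made, since each genotype has 1 list. Windows, joining distance, value minimums, list length, IgG summits and paralogs were varied.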

Additional observations from a re-analysis of the deposited data

How the results depend on the processing

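Of 112 values under other settings, 73 stayed close to the main value (counts within 1.5 times of it) and 39 moved. The cause was not tested. No paired analysis was possible because the libraries of a genotype share 1 list of summits, and for the same reason no replicate could be left out. Removing paralog genes moved none of the values. Removing CTCF summits within 500 bp of an IgG summit could move none, since no IgG summit lay near these genes. In the order ORC2 deletion, ORC2 rescue and WT, genes with a summit numbered 13, 13 and 12 inside the gene body and 30, 16 and 15 with −log10 q of at least 10. Within 2 kb they numbered 32 in ORC2 rescue and 29 in WT, and within 50 kb 72 in WT. Genes with a start summit numbered 10, 6 and 4 with a minimum of 10, and 9 in ORC2 rescue and 10 in WT with a minimum of 5. Sites numbered 18 in gene bodies, 61 within 2 kb, 361 within 50 kb, 80 within 10 kb of the start, and 79 and 40 with minimums of 5 and 10. Sites in all 3 lists numbered 10, 15 and 83 in gene bodies, 2 kb and 50 kb, 14 and 46 when joined within 50 and 500 bp, and 9 with a minimum of 10. Sites of ORC2 deletion alone numbered 2, 11 and 91 in these windows, 15 within 10 kb of the start, 40 and 12 when joined within 50 and 500 bp, and 8 with equal list lengths. Up regions numbered 2, 8 and 55, and down regions 0 in gene bodies and near the start and 6 within 50 kb. The setting of either gene end was chosen after seeing the data. Depth is unknown, so an absent summit is not an absence of CTCF.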
